A study of Mus musculus with 3 samples.

Results

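Myeloid-derived suppressor cells (MDSCs) grown from mice without the long noncoding RNA lncGM1082 were set against MDSCs grown from mice without another long noncoding RNA, lnc57Rik. Each knockout was represented by 1 library, the lncGM1082-/- library (lncGM1082 KO) and the lnc57Rik-/- library (lnc57Rik KO). The remaining library, from wild type mice (WT), took no part in the fold and is given beside the knockouts to place their levels. All 3 libraries were labelled C57BL/6 and held total RNA of femur marrow cells kept for 4 days in RPMI-1640 with GM-CSF and IL-6. In the labels, the protocol for growing the cells mentions C57BL/6 and lnc57Rik-deficient mice but not mice without lncGM1082, and neither the alleles nor any pooling of animals are given in the sources used here. The series' design text could mean more samples than the 1 column found per genotype, and whether a column stands for more than 1 sample is not known. Of 57561 rows in the table, 22202 had a mean of at least 1 FPKM (fragments scaled by transcript length and sequencing depth) over the 3 libraries and were compared. For each of them the log2 ratio of lncGM1082 KO to lnc57Rik KO was taken after adding a pseudocount of 1 FPKM, which understates the difference of rows with low values. A row was called higher or lower when this log2 fold was at least 1 or at most -1. With 1 library per genotype there was no replicate check and no test, so every difference below is a difference between these libraries.

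Culture of marrow with GM-CSF and IL-6 yields a mixture of immature neutrophil-like and monocyte-like cells. Such cells restrain T cells by breaking down arginine with arginase, by making nitric oxide with the inducible synthase, and by releasing reactive oxygen, prostaglandin E2 and interleukin-10. Lymphoid precursors, dendritic cells, eosinophils and basophils are other cells that marrow holds or can give rise to in culture.

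The FPKM values rested on 17593431 fragments in the lnc57Rik KO, 18280430 in the lncGM1082 KO and 18485090 in the WT library, totals recovered from the steps between low FPKM values. For a transcript of 1000 exon bases, 1 fragment was worth between 0.0541 and 0.0568 FPKM. FPKM ratios below carry a 95% interval, computed by the exact Clopper-Pearson method from the fragments that both knockouts held. It covers counting error only, since fragments are not independent molecules and differences between mice, cultures and library preparations are not in it. Ferritin heavy chain (Fth1) took 3.93% of the summed FPKM in the lnc57Rik KO, 5.76% in the lncGM1082 KO and 6.09% in the WT library. The surface markers that define MDSCs were present throughout. Itgam (CD11b) had 36.5, 31.0 and 25.1 FPKM, Ly6g had 73.4, 21.1 and 33.9 FPKM, and Ly6c2 had 243, 353 and 206 FPKM in WT, lnc57Rik KO and lncGM1082 KO. The 4 Y-linked genes compared had log2 folds of lncGM1082 KO over lnc57Rik KO between -0.18 and -0.01 (median -0.03, or 0.02 with median ratio scaling, which sets the median ratio between the knockouts to 1).

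The targeted transcripts could not be used to check the labels. RefSeq lists Gm1082 as another name of Arhgap33os, which is an antisense gene for a long noncoding RNA (chromosome 7, positions 30515122 to 30522193, GRCm38). A NONCODE row at that position was listed at 0 in the lnc57Rik KO, at 0.0204 FPKM in WT and at 0.0620 FPKM in the lncGM1082 KO library, all far below the filter of 1 FPKM. No row was matched to lnc57Rik, since 0 symbols of the table have that ending, so its level is not reported.

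More rows were lower than higher in the lncGM1082 KO library. Of all rows compared, 290 were higher, which is 1.31% of them, and 681 were lower, which is 3.07%. The median log2 fold over all rows was -0.06, with quartiles at -0.28 and 0.17. Among 12041 rows with an Ensembl identifier, 141 were higher (1.17%) and 404 lower (3.36%), and the median was -0.10. Of these Ensembl rows, 63.2% lay below 0. Counts of list members called, or lying below 0, are to be read beside these shares. Among 10161 rows with a NONCODE identifier for long noncoding RNA, 149 were higher (1.47%) and 277 lower (2.73%), and the median was -0.00. The imbalance was widest among 10265 protein-coding genes, of which 41 were higher (0.399%) and 251 lower (2.45%). It grew with the size of the fold, with 13 rows higher and 93 lower at a log2 fold of at least 2 in size. Small RNAs made up 4.99% and pseudogenes 7.68% of the Ensembl rows compared. Of the 141 Ensembl rows called higher, 67 were small RNAs (47.5%) and 27 were pseudogenes (19.1%). Of the 404 called lower, 80 were small RNAs (19.8%) and 45 were pseudogenes (11.1%). These small RNAs were short, and the compared ones had a median of 12 fragments, taking for each row the knockout that held more. Of the rows called lower, 315 had under 1 FPKM in the lncGM1082 KO library, and 127 of those called higher had under 1 FPKM in the lnc57Rik KO library. Such rows passed the filter on the mean through the other libraries. The interval of the FPKM ratio excluded 1 for 103 of the 141 Ensembl rows called higher and for 366 of the 404 called lower, as a description of rows chosen for a large ratio.

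**Figure D1:**
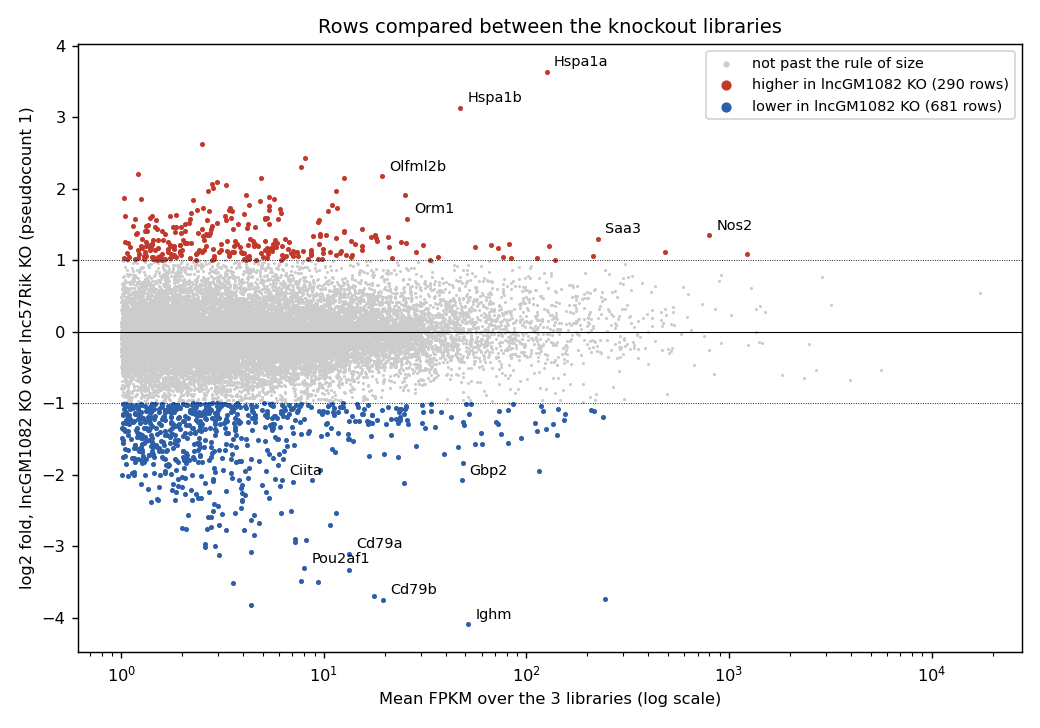
Log2 fold of lncGM1082 KO over lnc57Rik KO (pseudocount 1, vertical axis) against the mean FPKM of the 3 libraries (horizontal axis, log scale), 1 point per row compared. The 290 rows higher and 681 rows lower in the lncGM1082 KO library are coloured, dotted lines mark a log2 fold of 1 and -1, and Hspa1a, Hspa1b and Nos2 stand out at the top while Ighm, Cd79b and Pou2af1 stand out at the bottom.

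B lineage genes held the largest negative folds, and for most of them the lnc57Rik KO library alone held a high level. Cd79b, the receptor chain that carries the B cell signal inwards, showed 2.19 FPKM in WT, 53.5 FPKM in lnc57Rik KO and 3.06 FPKM in lncGM1082 KO cells (log2 fold -3.75, FPKM ratio 0.0572, 95% interval 0.0450 to 0.0717). Its partner chain Cd79a had 2.49, 34.3 and 3.12 FPKM in the same order (log2 fold -3.10). In both genes the lnc57Rik KO library stood alone, and the lncGM1082 KO library lay close to WT. The list of B cell receptor and surface genes had 20 of its 21 members compared, of which 18 were lower, beside 3.36% of all Ensembl rows, 0 were higher, and 2 reached 1 FPKM in the lnc57Rik KO but not in the lncGM1082 KO library. Its median log2 fold was -2.17 over the members compared and -2.06 over all 21, beside -0.10 for all Ensembl rows. Summed over the list, the level was 160 FPKM in WT, 646 FPKM in lnc57Rik KO and 146 FPKM in lncGM1082 KO cells. Among the other lower members were Ly6d, a surface protein of early B lineage cells (log2 fold -3.70), the IgM receptor Fcmr (-2.89), the membrane protein Ms4a1, known as CD20 (-2.70), the inhibitory lectin Cd22 (-2.32), the kinase Blk (-2.28) and the co-receptor Cd72 (-2.06). Btk, a kinase that myeloid cells use as well, had 27.2, 28 and 23.3 FPKM and did not pass the rule of size. Jchain, the joining chain of secreted IgM and IgA, lay the other way, with 2.92 FPKM in WT, 0.994 FPKM in lnc57Rik KO and 1.93 FPKM in lncGM1082 KO cells (log2 fold 0.56). In bulk RNA, fewer cells of a type and less RNA per cell cannot be told apart.

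Immunoglobulin constant genes, chosen here after their values were seen, moved in both directions. The constant genes of IgM and IgD, the isotypes of naive B cells, were lower: Ighm had 6.97, 141 and 7.31 FPKM in WT, lnc57Rik KO and lncGM1082 KO (log2 fold -4.09, ratio 0.0519, interval 0.0456 to 0.0590), and Ighd had 2.36, 34.9 and 2.56 FPKM (log2 fold -3.33). The lambda chain gene Iglc2 had a log2 fold of -2.84 and the kappa chain gene Igkc, with 102, 177 and 81.5 FPKM, a log2 fold of -1.11. Of the 6 constant genes of switched isotypes, which plasma cells and memory B cells use, 3 were higher in the lncGM1082 KO library. Igha of IgA had 11.8 FPKM in WT, 1.26 FPKM in lnc57Rik KO and 11.1 FPKM in lncGM1082 KO cells (log2 fold 2.42, ratio 8.84, interval 6.75 to 11.8). Ighg1 had 5.47, 1.05 and 4.83 FPKM (log2 fold 1.51), and Ighg2c had 33.7, 5.49 and 15.1 FPKM (log2 fold 1.31). Ighg2b, at 8.38, 4.31 and 7.64 FPKM, did not pass the rule of size (log2 fold 0.70). Ighg3 lay the other way, at 0.345, 1.13 and 0.283 FPKM (log2 fold -0.73, ratio 0.250, interval 0.125 to 0.468), and fell under the filter on the mean. Ighe also fell under it, with 1, 0 and 4 fragments. All lie in the heavy chain locus of chromosome 12 apart from Igkc on chromosome 6 and Iglc2 on chromosome 16.

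Transcription factors that set up and keep the B lineage were lower as well. All 12 members found in the table were compared, 8 were lower and 0 higher, with a median log2 fold of -1.49; 5 of them reached 1 FPKM in the lnc57Rik KO but not in the lncGM1082 KO library. The median depended on the settings, at -0.79 with a pseudocount of 5, -2.13 with 0.1 and -0.86 with a minimum mean of 5 FPKM, and Pax5, Ebf1 and Ikzf3 did not pass with a pseudocount of 5. Pou2af1, the octamer coactivator of B cells, had 0.934, 21.8 and 1.31 FPKM in WT, lnc57Rik KO and lncGM1082 KO (log2 fold -3.30, ratio 0.0601, interval 0.0456 to 0.0779). Spib, active in both B cells and plasmacytoid dendritic cells, had 1.66, 27.2 and 3.32 FPKM (log2 fold -2.71). Pax5, which commits cells to the lineage, and Ebf1, which acts before it, were at 5.16 and 3.95 FPKM in the lnc57Rik KO against 0.303 and 0.258 FPKM in the lncGM1082 KO library (log2 folds -2.24 and -1.98). Bach2 (-2.59), Ikzf3 (-1.75), Bcl11a (-1.22) and Irf4 (-1.11) were lower too, while Tcf3, Ikzf1, Pou2f2 and Foxo1, which other blood cells also express, lay between -0.62 and -0.23. Genes of the pro-B and pre-B stages were sparse: only 5 of 12 were compared, 1 was lower and the median was -0.46. Vpreb3, which helps assemble the pre-B receptor, had 0.126, 7.54 and 0.0637 FPKM, the last from 1 fragment (log2 fold -3.01, ratio 0.00844, interval 0.000212 to 0.0480). It reached 1 FPKM in the lnc57Rik KO library only and so passed the filter where it was high. Igll1, Rag2 and Vpreb2 were listed at 0 in the lncGM1082 KO library. In WT 2 members of this list were at 0 and in the lnc57Rik KO library 0 were, and 7 of the 12 fell under the filter. Il7r (log2 fold 0.20) and Cd93 (0.72) lay above 0. The octamer ATGCAAAT, on either strand in the 250 bases before the start site, was found in 1 of 13 receptor and surface genes with a RefSeq promoter (Blnk) and in 0 of 11 transcription factor genes, beside 1.61% of 27025 promoters.

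**Figure D2:**
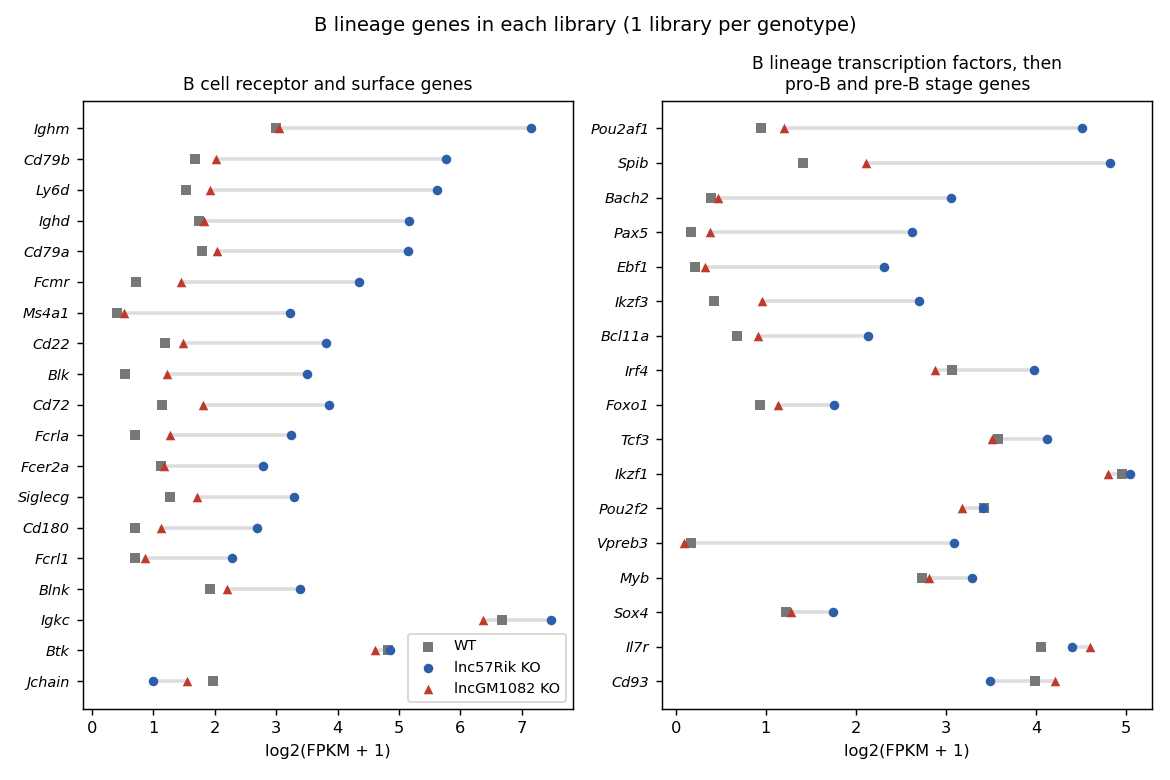
Level of B lineage genes, as log2(FPKM + 1), in the WT (grey squares), lnc57Rik KO (blue circles) and lncGM1082 KO (red triangles) libraries, with a line joining the knockouts. For the receptor and surface genes drawn that were called lower the circle lies to the right of both other symbols, whereas Jchain shows the opposite order.

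Most T and NK cell genes were near the floor of detection. Only 4 of 17 were compared, and 2 of these, the kinase Lck (0.887, 4.52 and 0.635 FPKM, log2 fold -1.76) and the adhesion receptor Cd2 (0.0932, 2.87 and 0.157 FPKM, log2 fold -1.74), were lower. Both reached 1 FPKM in the lnc57Rik KO but not in the lncGM1082 KO library, so they passed the filter where they were high. The other 2 compared lay above 0. One of them was Nkg7, also on the primary granule list, with 10.9, 11.0 and 14.7 FPKM (log2 fold 0.39). The median was -0.71 over the 4 compared and -0.23 over all 17. Cd3g and Gzma were listed at 0 in the lncGM1082 KO library and Trac in the lnc57Rik KO library. Of 7 plasmacytoid dendritic cell genes compared, 1 was lower, the sodium pump subunit Atp1b1 (0.492, 4.94 and 0.710 FPKM, log2 fold -1.80), and the median was -0.51. Atp1b1 reached 1 FPKM in the lnc57Rik KO library only, so it passed the filter where it was high. With a pseudocount of 5 it did not pass the rule of size (-0.80).

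Dendritic cell genes were lower for a minority of their members. In the maturation list, 4 of 16 were lower, beside 3.36% of all Ensembl rows, and 0 higher, with a median of -0.67. Cd83, a surface protein of mature dendritic cells and activated B cells, had 5.45 FPKM in WT, 34.9 FPKM in lnc57Rik KO and 9.76 FPKM in lncGM1082 KO cells (log2 fold -1.74). The actin-bundling protein Fscn1 had 14.7, 65.9 and 25.6 FPKM (log2 fold -1.33). The chemokines Ccl22 and Ccl17, which attract regulatory and helper T cells through CCR4, had 274 and 186 FPKM in the lnc57Rik KO against 115 and 70.9 FPKM in the lncGM1082 KO library (log2 folds -1.24 and -1.38). The costimulatory ligand Cd80 lay the other way at 45.6, 37.5 and 69.0 FPKM (log2 fold 0.86). Among subset genes, 2 of 8 compared were lower. They were Kmo of tryptophan breakdown (0.618, 3.16 and 0.486 FPKM, log2 fold -1.49) and the transcription factor Irf8 (13, 37.4 and 17.3 FPKM, log2 fold -1.07). Kmo reached 1 FPKM in the lnc57Rik KO library only, so it passed the filter where it was high. With a pseudocount of 5, neither Kmo (-0.57) nor Irf8 (-0.93) passed the rule of size. The subset median was -0.62 (-0.22 over all 13 members), and Clec10a and Mgl2 lay at 0.43 and 0.27.

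Genes of the MHC class II pathway, by which B cells, dendritic cells and macrophages show peptides to CD4 T cells, were lower in 7 of 12 cases and higher in 0, and 12 of 12 lay below 0 (median -1.06). Across all Ensembl rows, 3.36% were lower and 63.2% lay below 0. The transactivator Ciita had 1.91 FPKM in WT, 14.2 FPKM in lnc57Rik KO and 2.60 FPKM in lncGM1082 KO cells (log2 fold -2.07, ratio 0.183, interval 0.166 to 0.203). H2-DMb2, a chain of the peptide-loading factor H2-M, had the lowest fold at 4.02, 26.6 and 3.74 FPKM (log2 fold -2.54). H2-Ob and H2-Oa, subunits of the H2-O modulator, had log2 folds of -1.86 and -1.14. The classical chains H2-Aa (73.2, 117 and 54.4 FPKM, log2 fold -1.09) and H2-Eb1 (95.5, 175 and 84.9 FPKM, log2 fold -1.03) were also lower. So was H2-Eb2 (0.416, 4.71 and 0.619 FPKM, log2 fold -1.82), which reached 1 FPKM in the lnc57Rik KO library only and so passed the filter where it was high. With a pseudocount of 5, H2-Eb2 (-0.79) and H2-Oa (-0.75) did not pass the rule of size. The invariant chain Cd74 at -0.87, H2-Ab1 at -0.42 and the protease Ctss at -0.22 did not pass the rule of size. For H2-Aa, H2-Eb1 and Cd74, WT lay above the lncGM1082 KO library. This order differed from that of Cd79a and Cd79b but was also that of the kappa chain gene Igkc (102, 177 and 81.5 FPKM). The B cell receptor and surface list was lower in the same library for 18 of 20 genes, with summed levels of 146 against 646 FPKM, and its part in the class II difference was not tested. With median ratio scaling 6 class II genes were lower, and H2-Eb1 no longer passed.

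Interferon-induced GTPases, many of which attack the vacuoles of intracellular pathogens, formed the other block of large negative folds. All 17 lay below 0, 14 were lower, beside 3.36% of all Ensembl rows, and 0 were higher, with a median of -1.31, and 3 reached 1 FPKM in the lnc57Rik KO but not in the lncGM1082 KO library. Summed over the list, the level was 112 FPKM in WT, 394 FPKM in lnc57Rik KO and 134 FPKM in lncGM1082 KO cells. Gbp2, a guanylate-binding protein, had 17.4, 103 and 23.7 FPKM (log2 fold -2.08, ratio 0.230, interval 0.215 to 0.245). Iigp1 had 0.225, 8.52 and 0.631 FPKM (log2 fold -2.55), and Gbp4 had 0.679, 10 and 1.15 FPKM (-2.35). The T cell specific GTPases Tgtp2 (-2.14) and Tgtp1 (-1.94) are near-identical copies, so their reads may be split between them. Mx1, at 11.8, 14.1 and 10.2 FPKM, and Mx2, at 4.25, 6.89 and 5.74 FPKM, which type I interferon induces strongly, had log2 folds of -0.43 and -0.23. Of the 10 GTPase genes with a RefSeq promoter sequence, 9 held GAAA, any 2 bases and GAAA, the core letters of the interferon-stimulated response element, on either strand, in the 250 bases before the start site, and Ifi47 did not. The same letters were found in 3.04% of 27025 promoters. A match describes the letters only and is no evidence of binding. Stretches around the match are printed for 5 genes, 5′ to 3′ along the gene, with the match in capitals, from RefSeq on GRCm38.p6. They lie at chr3:142620592-142620625 (plus strand) for Gbp2, chr11:49064261-49064294 (minus strand) for Tgtp2, chr11:58199510-58199543 (plus strand) for Igtp, chr11:48871423-48871462 (minus strand) for Irgm1 and chr3:142559987-142560026 (plus strand) for Gbp3. In Irgm1 and Gbp3 the capitals join a pair of overlapping matches, and in Gbp2 and Gbp3 the element reads on the opposite strand.
Gbp2: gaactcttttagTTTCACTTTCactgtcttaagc
Tgtp2: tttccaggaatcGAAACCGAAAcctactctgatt
Igtp: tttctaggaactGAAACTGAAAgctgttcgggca
Irgm1: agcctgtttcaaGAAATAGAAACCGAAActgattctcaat
Gbp3: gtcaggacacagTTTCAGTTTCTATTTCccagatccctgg
The remaining genes shown had log2 folds of -1.20 (Igtp, 13.5, 40.7 and 17.2 FPKM), -1.29 (Irgm1, 9.12, 28.9 and 11.2 FPKM) and -1.29 (Gbp3, 6.48, 17.6 and 6.60 FPKM).

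The antiviral arm of the interferon response moved less. The median over 22 genes was -0.38. Of them, 22 lay below 0 (21 under median ratio scaling), beside 63.2% of all Ensembl rows. Only 3 reached the rule of size for a lower level, beside 3.36% of all Ensembl rows. They included the nucleic acid sensor Zbp1 (19.1, 54.9 and 21 FPKM, log2 fold -1.35) and Ifit3 (6.11, 18.1 and 6.87 FPKM, -1.28). Isg15 (105, 176 and 131 FPKM, -0.43), Oas2 (-0.18) and Ifih1 (-0.04) show the smaller end. The interferon response element letters were found in 7 of the 17 antiviral genes with a promoter sequence. Irf1, a transcription factor induced by interferon gamma and named here after its values were seen, had 17.3 FPKM in WT, 77.1 FPKM in lnc57Rik KO and 22.9 FPKM in lncGM1082 KO cells (log2 fold -1.71). In the MHC class I pathway, 5 of 18 genes were lower, beside 3.36% of all Ensembl rows, and 0 higher, with a median of -0.72. The lower ones were the immunoproteasome subunits Psmb10 (16.8, 52.1 and 16.6 FPKM, -1.59), Psmb9 (-1.27) and Psmb8 (-1.03), the peptide trimming enzyme Erap1 (-1.22) and the class I transactivator Nlrc5 (14.5, 38.9 and 17.4 FPKM, -1.12). The heavy chains H2-K1 (239, 347 and 325 FPKM) and H2-D1 (356, 433 and 460 FPKM) lay at -0.09 and 0.09, and H2-Q genes, which share reads, between -0.35 and -0.02. Psmb8 lay at the threshold and did not pass it with median ratio scaling. B lineage genes were lower in the same library, and their part in the interferon and class I differences was not tested.

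**Figure D3:**
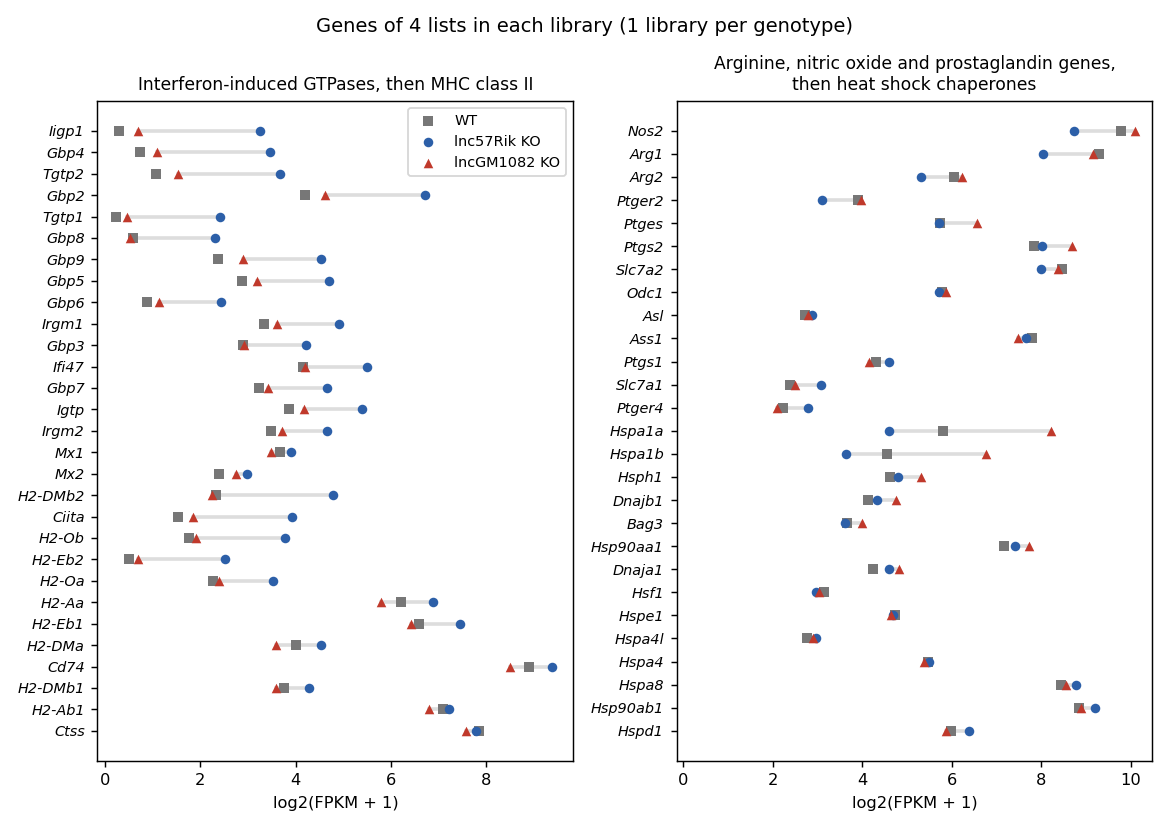
Level of each gene as log2(FPKM + 1) in the WT (grey squares), lnc57Rik KO (blue circles) and lncGM1082 KO (red triangles) libraries, with a line joining the knockouts, for interferon-induced GTPases and MHC class II genes (left) and for arginine, nitric oxide and prostaglandin genes and heat shock chaperones (right). On the left the circle lies to the right of the triangle in every gene, and on the right Nos2, Arg1, Hspa1a and Hspa1b show the triangle to the right by a log2 fold of at least 1.

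The 2 genes with the largest positive folds were the inducible HSP70 genes, chaperones that refold proteins after stress. Hspa1a had 54.7 FPKM in WT, 23.1 FPKM in lnc57Rik KO and 299 FPKM in lncGM1082 KO cells (log2 fold 3.64, ratio 12.9, interval 12.2 to 13.7). Hspa1b had 22.4, 11.4 and 108 FPKM (log2 fold 3.14, ratio 9.47, interval 8.68 to 10.3). Here the lncGM1082 KO library stood apart, above both WT and the lnc57Rik KO library. Both genes lie side by side on the minus strand of chromosome 17 and are near-identical copies, so reads may be split between them. Other heat shock genes did not pass the rule of size: Hsph1 had 23.7, 27.0 and 38.7 FPKM (log2 fold 0.50), Dnajb1 had 16.5, 19.0 and 25.9 FPKM (0.43), Hsp90aa1 lay at 0.33 and Hspd1 at -0.51. Over the 14 chaperone genes compared, 2 were higher and 0 lower, and the median was 0.15. The 250 bases before the start site of Hspa1a (chr17:34972157-34972406) and Hspa1b (chr17:34959239-34959488), from RefSeq on GRCm38.p6 and printed 5′ to 3′ along the genes, show how alike the pair is, with 247 of 250 bases identical. Capitals mark the letters GAANNTTC of the heat shock element, searched on both strands, of which each held 1 match.
Hspa1a: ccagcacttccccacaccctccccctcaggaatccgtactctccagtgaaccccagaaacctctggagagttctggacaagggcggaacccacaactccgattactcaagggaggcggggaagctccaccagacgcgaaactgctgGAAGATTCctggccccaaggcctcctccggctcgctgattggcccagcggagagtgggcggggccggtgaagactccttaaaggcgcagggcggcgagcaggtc
Hspa1b: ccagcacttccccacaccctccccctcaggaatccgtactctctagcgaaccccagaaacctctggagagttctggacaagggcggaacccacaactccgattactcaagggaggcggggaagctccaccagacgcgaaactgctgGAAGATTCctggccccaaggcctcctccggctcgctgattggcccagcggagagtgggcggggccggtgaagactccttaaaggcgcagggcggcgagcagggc
The letters were found in 4 of 10 chaperone genes with a promoter sequence, the others being Dnaja1 (log2 fold 0.23) and Hspe1 (-0.04), and in 6.78% of 27025 promoters.

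Among genes by which MDSCs deplete arginine and make nitric oxide and prostaglandins, Nos2 and Arg1 were higher in the lncGM1082 KO library. Nos2, the inducible nitric oxide synthase, had 886 FPKM in WT, 426 FPKM in lnc57Rik KO and 1087 FPKM in lncGM1082 KO cells (log2 fold 1.35, ratio 2.55, interval 2.52 to 2.59). Arg1, arginase 1, had 626, 262 and 569 FPKM (log2 fold 1.12, ratio 2.18, interval 2.13 to 2.23). For both genes the lnc57Rik KO library was the low one, with WT between the knockouts for Nos2 and just above the lncGM1082 KO library for Arg1. These were the 2 higher members among 13 compared, beside 1.17% of all Ensembl rows. In this list 0 were lower, and the median was 0.37 (0.14 over all 15 members). The mitochondrial arginase Arg2 (65.5, 38.8 and 74.5 FPKM, log2 fold 0.93), the arginine transporter Slc7a2 (0.37) and the prostaglandin E2 receptor Ptger2 (0.89) lay above 0 without passing. Prostaglandin synthesis showed another order, with the lncGM1082 KO library high and the others close together: Ptgs2 had 227, 258 and 411 FPKM (log2 fold 0.67) and Ptges had 52.1, 51.6 and 93.2 FPKM (0.84). The second arginine transporter Slc7a1 (-0.58), the receptor Ptger4 (-0.69) and the constitutive synthase Ptgs1 (-0.46) lay below 0. Nos2 lies on chromosome 11 and Arg1 on chromosome 10.

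Of the suppressive ligands and ectoenzymes, 1 of 13 was higher and 0 lower (median 0.15). It was Il10, which encodes the inhibitory cytokine interleukin-10, with 49.0 FPKM in WT, 36 FPKM in lnc57Rik KO and 82.9 FPKM in lncGM1082 KO cells (log2 fold 1.18, ratio 2.31, interval 2.13 to 2.5). Vegfa, an angiogenic factor, had 90.6, 57.4 and 105 FPKM (0.86), and Cd274, which encodes PD-L1, had 156, 207 and 237 FPKM (0.20). The alarmins S100a9 and S100a8, abundant neutrophil proteins, lay below 0. S100a9 had 4521, 4509 and 2833 FPKM (log2 fold -0.67) and S100a8 had 2718, 2610 and 1672 FPKM (-0.64), so the lncGM1082 KO library was the low one and WT and the lnc57Rik KO library were close. The NADPH oxidase, the source of reactive oxygen, had 0 of 7 subunits past the rule of size in either direction, with folds from -0.33 (Ncf1) to 0.28 (Ncf4) and a median of -0.02 that turned to 0.04 with median ratio scaling.

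The transcription factors and signals of the culture conditions were close between the knockouts. Of 18 genes for C/EBP and other myeloid transcription factors, 0 reached the rule of size; their median was -0.04, or 0.02 with median ratio scaling. Cebpb, which drives MDSC formation, had 236, 150 and 148 FPKM in WT, lnc57Rik KO and lncGM1082 KO (log2 fold -0.02). Of 16 genes of GM-CSF and IL-6 signalling, 0 passed, with the feedback inhibitor Socs3 (441, 260 and 417 FPKM, 0.68) and Cish (-0.48) at the ends and a median of 0.07.

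Neutrophil genes were described by the stage at which they are made. Primary granule genes, made by promyelocytes, had 0 of 9 members past the rule of size and a median of -0.02, which was 0.03 with median ratio scaling. Among 17 secondary and tertiary granule genes, 2 were higher and 0 lower, and the median was -0.21. The higher ones were the protease inhibitor Slpi (1450, 713 and 1522 FPKM, log2 fold 1.09) and the acute phase protein Orm1 (28.1, 11.7 and 37.1 FPKM, 1.58), whose reads may be shared with related Orm genes. Of the 17 genes, 8 lay above 0 and 9 below. Among those below, lactoferrin (Ltf) had 235, 276 and 143 FPKM (-0.95) and Ngp had 2025, 2072 and 1368 FPKM (-0.60). In both of these the lncGM1082 KO library was the low one, as for the S100 genes. The gelatinase Mmp9 (177, 62.6 and 94.2 FPKM, 0.58) and the collagenase Mmp8 (453, 199 and 344 FPKM, 0.79) lay above 0, with WT highest.

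Mature neutrophil markers had 3 of 22 members higher, beside 1.17% of all Ensembl rows, and 0 lower, with a median of 0.49 and 5 members below 0. S100a9, S100a8 and Cxcr4 (-0.55) were the lowest. The summed level went the other way from the median, at 9281 FPKM in lnc57Rik KO and 7461 FPKM in lncGM1082 KO cells, and the S100 genes held most of it. Steap4, a metalloreductase, had 24.3 FPKM in WT, 1.80 FPKM in lnc57Rik KO and 11.4 FPKM in lncGM1082 KO cells (log2 fold 2.15, ratio 6.32, interval 5.12 to 7.88). The chemoattractant Prok2 had 40.0, 6.79 and 28.3 FPKM (log2 fold 1.91), and the protease Asprv1 had 12.5, 6.54 and 18.7 FPKM (1.39). The G-CSF receptor Csf3r (130, 63.5 and 119 FPKM, 0.90) and the lectin Clec4d (369, 189 and 364 FPKM, 0.94) came close to the threshold. With median ratio scaling 4 markers were higher. Ly6g (0.66), Cxcr2 (0.49) and Retnlg (0.25) lay above 0, with both knockouts well under WT, at 21.1 and 33.9 against 73.4 FPKM for Ly6g. In the stefin A cluster, whose genes are near-identical copies, 0 of 5 compared passed, from BC100530 at -0.94 to Stfa2l1 at 0.87 (median -0.04, or 0.01 with median ratio scaling).

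Monocyte and macrophage markers had 0 of 15 compared members past the rule of size and a median of 0.15, from Ly6c2 at -0.78 to the LPS co-receptor Cd14 at 0.71 (899, 679 and 1108 FPKM). Lyz2 had 1449, 684 and 614 FPKM (-0.16), so both knockouts lay below WT. Of 9 matrix genes of monocytic cells, 1 was higher, the transglutaminase subunit F13a1 (41.9, 19.1 and 39.4 FPKM, log2 fold 1.0), and the median was 0.50. Versican (Vcan, 0.95), thrombospondin (Thbs1, 3261, 1993 and 3398 FPKM, 0.77) and fibronectin (Fn1, 216, 48.4 and 82.2 FPKM, 0.75) did not pass it. Among 18 scavenger, Fc and lectin receptors, 1 was lower, Marco (4.58, 11.2 and 4.80 FPKM, -1.07), 0 were higher (1 with median ratio scaling) and the median was 0.13. Complement genes had 0 of 11 past the rule, with C1qb lowest at -0.70 and a median of -0.19.

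Markers of other granulocytes had few members past the rule of size. Of 10 eosinophil genes compared, 10 lay below 0, beside 63.2% of all Ensembl rows, and 3 were lower (median -0.56). These were Gata1, a transcription factor of eosinophils and erythroid cells (0.910, 3.47 and 1.08 FPKM, log2 fold -1.11), and the ribonucleases Ear1 (11.9, 31.8 and 14.4 FPKM, -1.09) and Ear2 (-1.08), which are near-identical copies. Of 11 basophil and mast cell genes, 1 was lower, the basophil protease Mcpt8 (22.7, 48.1 and 21.7 FPKM, -1.12), and the median was -0.55. With 3.36% of all Ensembl rows called lower, 1 call in a list of this size is not a result about its members. No member passed in the lists for erythroid cells (3 compared, lowest Car2 at -0.56, median -0.52), megakaryocytes (4, highest Ppbp at 0.88, median 0.09), stem and progenitor cells (6, lowest Cd48 at -0.77, median -0.47) or stromal and endothelial cells (5, highest Acta2 at 0.95, median 0.18).

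Nearly all genes of cell division lay below 0 in the lncGM1082 KO library, and the helicase subunits and histones reached the rule of size most often. Across all Ensembl rows, 63.2% lay below 0 and 3.36% were lower. Of 23 DNA replication genes compared, 23 lay below 0 and 9 were lower, with a median of -0.77. Mcm2 to Mcm7, the subunits of the replicative helicase, were all lower, with log2 folds between -1.20 and -1.04. Mcm6 had 9.15 FPKM in WT, 22.7 FPKM in lnc57Rik KO and 9.53 FPKM in lncGM1082 KO cells (log2 fold -1.17, ratio 0.419, interval 0.386 to 0.456), and the ribonucleotide reductase subunit Rrm2 had 17.2, 37.0 and 16.9 FPKM (-1.09). Of 20 genes of mitosis and the spindle, 20 lay below 0 and 2 were lower, the topoisomerase Top2a (20.4, 38.1 and 17.8 FPKM, -1.05) and Ccna2 (6.09, 13.1 and 5.95 FPKM, -1.02), with a median of -0.70. Neither passed with median ratio scaling, under which 7 replication genes were lower and Mcm5 was not among them. Of 15 cyclins, inhibitors and Myc genes, 1 was lower, the transcription factor E2f2 (5.26, 10.7 and 4.29 FPKM, -1.14), and the median was -0.49. With a pseudocount of 5, Mcm2 (-0.79), Mcm3 (-0.95), Mcm4 (-0.85), Mcm6 (-0.93) and Mcm7 (-0.85) did not pass the rule of size. Nor did Rrm2 (-0.94), Top2a (-0.91), Ccna2 (-0.73) and E2f2 (-0.76). The replication median was -0.50 with a pseudocount of 5 and -1.03 with 0.1. In the examples given WT lay closer to the lncGM1082 KO than to the lnc57Rik KO library. Replication-dependent histones had 15 of 24 members lower and 24 below 0, with a median of -1.05, and 12 lower with median ratio scaling. Hist1h1a had 20.7, 98.7 and 26.9 FPKM (log2 fold -1.84), Hist1h3a had 36.5, 154 and 51.7 FPKM (-1.55) and Hist1h1b had 45.8, 175 and 61.9 FPKM (-1.49). Their messages carry no poly(A) tail, and copies of the same histone share reads. B lineage genes were lower in the same library, and their part in the cell division difference was not tested.

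Metabolic and stress lists had few members past the rule of size, and in several of them nearly all members lay on the same side of 0. Across all Ensembl rows, 63.2% lay below 0. Glycolysis and hypoxia genes lay above 0 in 24 of 25 cases, with 1 higher and a median of 0.32. Pfkfb3, which makes the activator of phosphofructokinase, had 146, 72.6 and 168 FPKM in WT, lnc57Rik KO and lncGM1082 KO (log2 fold 1.20, ratio 2.32, interval 2.26 to 2.37), and the oxygen sensor Egln3 had 220, 130 and 231 FPKM (0.83). Antioxidant genes under NRF2 lay above 0 in 12 of 14 cases, led by Gclm of glutathione synthesis (103, 58.2 and 95.6 FPKM, 0.71), with 0 past the rule and a median of 0.40. Of 11 iron genes, 1 was higher, Steap4, and the median was 0.37. Fth1 itself had 20190, 12804 and 18697 FPKM (0.55). Endoplasmic reticulum chaperones lay below 0 in 16 of 17 cases, with Sdf2l1 lowest (43.9, 94.6 and 50.7 FPKM, -0.88), 0 past the rule and a median of -0.37. Among 17 genes of the ATF4 response, 1 was lower, Shmt2 of serine breakdown (6.94, 18.4 and 8.25 FPKM, -1.07), and the median was -0.23. The cholesterol exporter Abca1 was the 1 higher of 14 LXR and lipid uptake genes (84.5, 48.0 and 114 FPKM, log2 fold 1.23), and the median was -0.16. None passed among 19 cholesterol synthesis genes (lowest Dhcr7 at -0.80, median -0.27), 21 nuclear respiratory chain genes (lowest Atp5a1 at -0.46, median -0.17), 8 mitochondrially encoded genes (lowest mt-Nd2 at -0.55, median -0.29) or 24 ribosomal protein genes (lowest Rps24 at -0.38, median -0.22). All 24 ribosomal protein genes lay below 0, or 23 with median ratio scaling. Immediate early genes, which respond fast to stimuli, had a median of 0.07, with 1 of 20 lower, the phosphatase Dusp2 (5.40, 17.8 and 8.17 FPKM, -1.04), which did not pass with median ratio scaling.

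Among inflammatory mediators, the CC and CXC chemokines had medians of opposite sign. Of 10 CC chemokines compared, 3 were lower, Ccl24, an eosinophil attractant (1.96, 10.4 and 2.96 FPKM, log2 fold -1.53), Ccl17 and Ccl22, and the median was -0.51. The abundant Ccl3 lay above 0, with 1259, 1026 and 1571 FPKM (0.61). Of 6 CXC chemokines, 5 lay above 0, 0 passed and the median was 0.69, with Ppbp at 0.88 and the neutrophil attractants Cxcl2 (949, 657 and 1142 FPKM, 0.80) and Cxcl1 (0.75). The scavenger receptor Ackr3 was the 1 higher of 11 chemokine receptors (2.28, 0.407 and 2.88 FPKM, log2 fold 1.46, ratio 7.06, interval 4.59 to 11.3; median 0.20). Of 15 genes of IL-12, IL-6 and TNF family cytokines, 2 were lower, the lymphotoxins Lta (2.03, 8.59 and 2.69 FPKM, -1.38) and Ltb (9.81, 18.6 and 8.80 FPKM, -1.0), which lymphocytes make. Ltb did not pass under either other scaling. Il6 (163, 157 and 188 FPKM, 0.26) and Tnf (-0.14) lay near 0 and the median was 0.32. In the inflammasome and IL-1 family, 1 of 17 was higher, the alarmin Il33 (4.11, 0.867 and 4.74 FPKM, log2 fold 1.62, ratio 5.47, interval 3.96 to 7.72), and the median was 0.28, with Il1b at 1602, 1311 and 1591 FPKM (0.28). None of 15 toll-like receptor genes passed (highest Tlr6 at 0.82, median 0.13).

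The remaining genes with the largest folds were of mixed roles. Scd1, the desaturase that makes monounsaturated fatty acids, had 2.13, 11.8 and 1.70 FPKM (log2 fold -2.24). Serpins had 3 of 8 members lower and 1 higher, beside 3.36% and 1.17% of all Ensembl rows (median -0.57). The lower ones were Serpina3f (1.23, 18.9 and 1.6 FPKM, -2.93) and Serpina3g (11.0, 52.1 and 11.3 FPKM, -2.11), members of an expanded mouse cluster that may share reads, and the granzyme B inhibitor Serpinb9 (-1.39). Olfml2b, an olfactomedin-like matrix protein, had 30.6, 4.35 and 23.1 FPKM (log2 fold 2.17, ratio 5.32, interval 4.63 to 6.13). The acute phase protein Saa3 had 348, 94.5 and 235 FPKM (1.30), and the gap junction protein Gja1 had 17.1, 7.45 and 21.8 FPKM (1.43). The autophagy protein Atg2a had 12.4, 11.1 and 30.1 FPKM (1.36), so that, as for the HSP70 genes, the lncGM1082 KO library stood above both others. Serf1 (1.27), the thrombin receptor thrombomodulin (Thbd, 1.22) and the retrotransposon-derived gene Peg10 (1.22) completed the group.

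Among NONCODE rows with a mean of at least 5 FPKM, the largest negative fold fell in NONMMUG010099.2 (chromosome 12, plus strand, positions 113423142 to 113426090), just upstream of Ighm, which is read from the minus strand (1.0, 25.6 and 1.35 FPKM, log2 fold -3.50). NONMMUG001198.2 on chromosome 1 (4.81, 14.1 and 1.67 FPKM, -2.5) and NONMMUG087042.1, opposite Mid1 on the X chromosome (7.08, 11.9 and 2.03 FPKM, -2.10), came next. The largest positive folds fell in NONMMUG071724.1 on chromosome 3, outside Ensembl genes (11.8, 1.23 and 10.1 FPKM, 2.31), NONMMUG009466.2 within Sipa1l1 on chromosome 12 (7.01, 1.61 and 8.42 FPKM, 1.85) and NONMMUG012526.2 within Cacna1d on chromosome 14 (11.7, 4.24 and 16.9 FPKM, 1.77). No strand setting for the counting is stated in the sources used here, so reads of a row and of a gene that overlaps it cannot be told apart. Rows outside Ensembl genes were called higher in 3.23% and lower in 2.5% of 1918 cases, rows on the strand of an Ensembl gene in 0.655% and 2.04% of 5341, and rows opposite a gene in 1.79% and 4.14% of 2902.

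**Figure D4:**
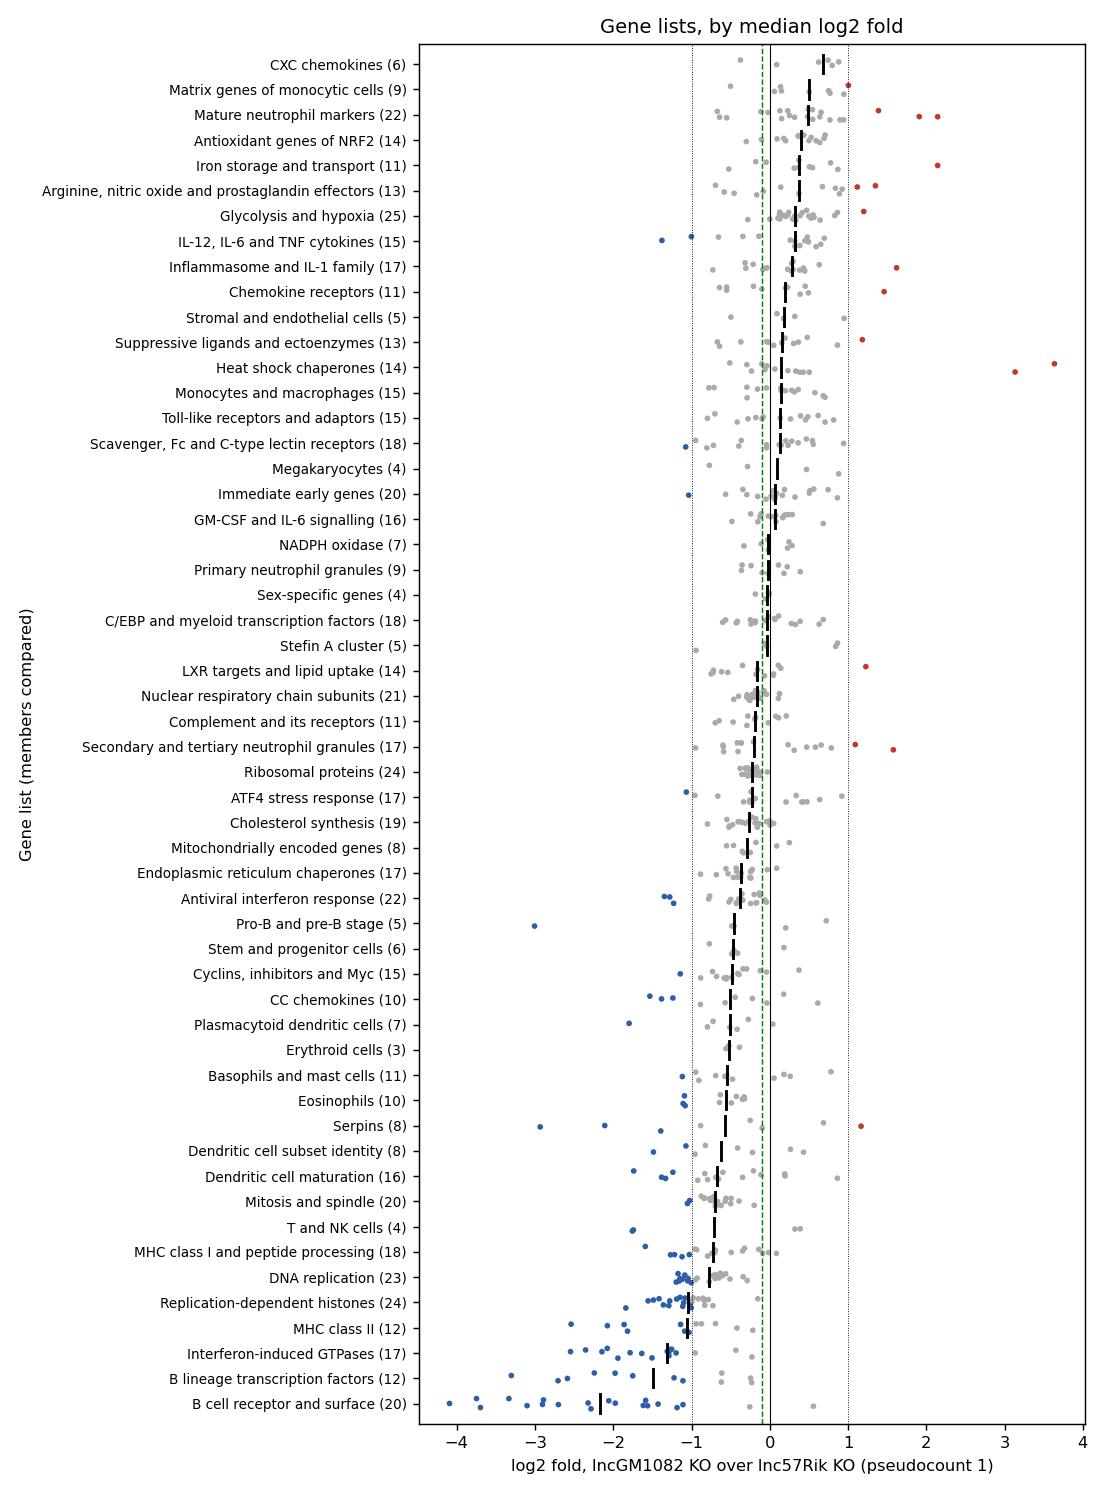
Log2 fold of lncGM1082 KO over lnc57Rik KO (pseudocount 1) for each gene compared, by gene list, with the number of members compared in brackets. Points are genes, coloured past a log2 fold of 1 or -1 (dotted lines), black bars are list medians and the green dashed line is the median of all Ensembl rows at -0.10. B cell receptor and surface genes, B lineage transcription factors and interferon-induced GTPases have the lowest medians, and CXC chemokines have the highest at 0.69.

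Across the 54 gene lists, 35 medians lay below 0 and 19 above. At least 3 members were lower in 12 lists and at least 3 were higher in 1, the mature neutrophil markers. The lists share 44 genes and were written with earlier results of these data known, so these counts describe the libraries and support nothing by themselves. The same holds for each list with 1 call, beside the 1.17% of Ensembl rows called higher and 3.36% called lower. Medians are over the members compared. Over all members found in the table they were nearer to 0 for the serpins (-0.27), the matrix genes (0.33) and the monocyte markers (0.02), and turned to -0.01 for the chemokine receptors.

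The WT library lay nearer to the lncGM1082 KO library for most called rows. On the log2(FPKM + 1) scale, WT lay nearer to the lncGM1082 KO than to the lnc57Rik KO level in 741 of 971 called rows (76.3%), 210 of 290 called higher and 531 of 681 called lower. Among rows not called it did so in 13037 of 21230 (61.4%). WT fell between the knockouts in 557 called rows, beyond the lncGM1082 KO level in 368 and beyond the lnc57Rik KO level in 46. Cd79b, Gbp2 and Mcm6 are examples of the rows with WT nearer to the lncGM1082 KO library. Hspa1a, Hspa1b, Atg2a and Il10 are examples of those with WT nearer to the lnc57Rik KO library. Of the 22202 rows, 3.32% were called among those with a mean of 5 to 20 FPKM and 5.93% among those of at least 100 FPKM, so calls were not limited to low rows.

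**Figure D5:**
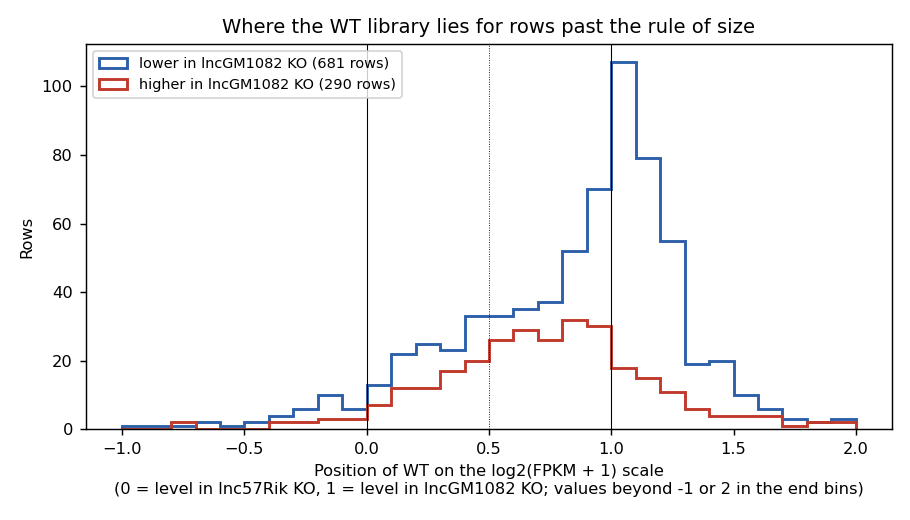
Number of called rows (vertical axis) by the position of the WT library on the log2(FPKM + 1) scale (horizontal axis), where 0 is the level in the lnc57Rik KO and 1 the level in the lncGM1082 KO library. Rows lower (681, blue) and higher (290, red) in the lncGM1082 KO library are drawn as outlines, and 76.3% of them lie to the right of the dotted line at 0.5, nearer to the lncGM1082 KO level.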

How the data were processed

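RNA sequencing of cultured mouse MDSCs gave 1 library each for WT, lnc57Rik KO and lncGM1082 KO. The authors deposited FPKM per gene with 1 column per library. Bowtie 0.12.2 and mm9 are named in the submitters' processing notes without role or order; software, strand setting and shared reads of the counting step: not given in the sources used here. Row positions matched a later build: 19570 of 20649 Ensembl rows had the identical position in GENCODE M21 on GRCm38, so coordinates are given on GRCm38. With exon lengths from that annotation, at least 96.97% of the values below 20 fragments were whole to within 0.05. The fragment totals so recovered had been fitted to make values of genes with 1 transcript whole, and were used for intervals only. The depth was 17593431 to 18485090 fragments.

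Rows with a mean of at least 1 FPKM were compared by log2 fold with a pseudocount of 1, and called at a log2 fold of 1 in size. Calculations used Python 3.11.15 with numpy 2.4.6, pandas 2.3.3, scipy 1.17.1 and matplotlib 3.10.9, and were tested on simulated data. Named genes were the 15 largest folds each way among Ensembl rows with a mean of at least 5 FPKM (without clone and predicted names, small RNAs, pseudogenes and antigen receptor segments), up to 6 members past the rule of size or else the largest of each of 54 lists, the 3 largest NONCODE rows each way and the targeted transcripts; other genes are further list members given for contrast or are said to be chosen after their values were seen. Members and lists were chosen with earlier results of these data known. Of 788 genes on the lists 770 were found in the table; some members enter the counts and medians but are not reported here by name. Motifs were searched in RefSeq promoters of GRCm38.p6. Alternatives changed the pseudocount, the filter, the scaling, the threshold and the kind of row.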

Additional observations from a re-analysis of the deposited data

How the results depend on the processing

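All counts of called rows moved with the settings, and lower calls outnumbered higher ones under each setting run. From 290 higher and 681 lower rows, the counts went to 40 and 142 with a pseudocount of 5, to 707 and 1273 with 0.1, to 112 and 200 with a minimum mean of 5 FPKM, and to 13 and 93 with a log2 fold of at least 2 in size. They were 141 and 404 for Ensembl rows only and 41 and 251 for protein-coding rows only, a split added after seeing the data. They stayed within 1.5 times with no filter (379 and 910), with the filter on the 2 knockouts (295 and 730), with median ratio scaling (336 and 612) and with equal sums without the top 20 rows (316 and 644). Lower rows were 70.1% of calls, and 64.6% and 67.1% with those scalings. Among the 103 named genes that met the threshold, 41 did not meet it with a pseudocount of 5, nor did 5 (Ccna2, Dusp2, Ltb, Psmb8 and Top2a) with median ratio scaling, while 0 reversed; H2-Eb1 and Mcm5, list members outside the rule for named genes, were also lost there. Medians near 0 changed sign under a scaling for 5 lists. With a minimum mean of 5 FPKM the pro-B and pre-B median became 0.20 and that of T and NK cells 0.39, and with no filter those of chemokine receptors and megakaryocytes became -0.01 and -0.05; these filters change which members enter. No paired analysis was possible because each genotype had 1 library. At 17593431 to 18485090 fragments per library, rows near 1 FPKM and short transcripts rested on few fragments, and no setting can stand in for replicate libraries.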

Other observations

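Neighbouring genes called in the same direction are given here as values, chosen after the data were seen. On chromosome 14, 7 of 8 Ensembl rows compared between 30009023 and 30491455 (GRCm38) were higher in the lncGM1082 KO library, with log2 folds from 1.0 to 1.74. They were Chdh, a choline dehydrogenase, the calcium channel gene Cacna1d (23.1, 11.8 and 28.2 FPKM in WT, lnc57Rik KO and lncGM1082 KO) and the processed pseudogenes Gm47570, Gm18072, Gm47576, Gm7621 and Gm18681, which lie within the limits of Cacna1d. The strand setting and the handling of shared reads are not stated. Reads of these pseudogenes and of Cacna1d therefore cannot be told apart, and the 7 rows are not separate observations. In this block WT lay above the lnc57Rik KO library for Cacna1d, as the lncGM1082 KO library did.

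The Gimap genes on chromosome 6, GTPases of lymphocytes, had 5 of 6 compared rows lower, between 48647234 and 48770851, with log2 folds from -2.25 to -1.44. Gimap4 had 0.677 FPKM in WT, 9.87 FPKM in lnc57Rik KO and 1.28 FPKM in lncGM1082 KO cells. Guanylate-binding protein genes were lower in 4 of 4 rows compared at 142493978 to 142638008 on chromosome 3 and in 3 of 3 at 105014150 to 105139586 on chromosome 5. Histone gene blocks on chromosome 13 were lower in 12 of 17 rows at 21715763 to 21833507 and in 8 of 11 at each of the next largest blocks.

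The processed pseudogene Gm10123 on chromosome 9 had 235 FPKM in WT, 462 FPKM in lnc57Rik KO and 33.8 FPKM in lncGM1082 KO cells (log2 fold -3.73). The lncGM1082 KO library was the low one here and WT lay between the knockouts, unlike for Cd79a and Cd79b. The surface receptor Tnfrsf13c, through which B cells receive the survival factor BAFF and which is on no list, had 0.713, 11.7 and 1.15 FPKM (log2 fold -2.57). Tnfrsf9, a costimulatory receptor, was among the highest rows called higher, with 267, 121 and 253 FPKM (1.06).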
